A study of Mus musculus with 9 samples.

Results

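The MYC network is a set of transcription factors that pair through a shared helix-loop-helix and leucine zipper. MYC, MYCN and MYCL bind DNA together with MAX at E-boxes, the sequence CACGTG, and raise transcription of growth and ribosome genes. MXI1, MXD4 and MNT compete for MAX at the same sites and recruit SIN3 and histone deacetylases, which repress transcription. MGA is a large MAX partner that in embryonic stem cells belongs to the Polycomb complex PRC1.6, and MLX pairs with some MXD proteins, MNT and the glucose-sensing factors MLXIP and MLXIPL. GSK3 phosphorylates MYC and MYCN proteins within a site that the ubiquitin ligase subunit FBXW7 recognises, which marks them for degradation. That step acts on protein, whereas RNA was measured here, and Myc RNA is itself short-lived.

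Members were the rows of the raw count table with the symbols Myc, Mycn, Mycl, Max, Mxi1, Mxd4, Mnt, Mga and Mlx, 9 of 52264 rows. All 9 were found, and all 9 were among the 15366 genes tested after the low-count filter. The cells were mouse embryonic stem cells labelled β-catenin-/-, a genotype that the control cells carry too. Per the labels all were expanded on feeder-treated dishes with 3 µM CHIR-99021, 1 µM PD03 (a MEK inhibitor) and 40 ng/ml LIF, moved to N2B27 medium overnight, and then treated for 30 min. The 3 groups were the untreated control, BRD0705 (an inhibitor selective for GSK3α) and CHIR (CHIR-99021, an inhibitor of GSK3α and GSK3β), with 3 libraries each. The doses of the 30 min treatment are not given in the labels, nor whether the replicates were separate cultures, so p-values measure the spread between these libraries, which may be technical.

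Library totals ran from 17359422 to 20773337 counts. All 10 embryonic stem cell markers on the list used (among them Pou5f1, Sox2 and Nanog) were expressed, with a summed level of 5223 to 5291 CPM (counts scaled to the effective library size) in control, 5230 to 5385 CPM with BRD0705 and 5351 to 5531 CPM with CHIR, so the CHIR libraries lay above every control library. Of these 10, Esrrb passed as higher with CHIR than in control, Esrrb and Tdgf1 passed as higher with CHIR than with BRD0705, and 0 passed in BRD0705 against control (edgeR; 3 at an unadjusted p under 0.05, 2 in DESeq2). In CHIR against control 4 of the 10 were higher and 6 lower. Their median log2 fold change was -0.01, as for all tested genes. In BRD0705 against control 3 were higher and 7 lower, with a median of -0.04 beside 0.00 for all tested genes. Between the inhibitors 4 were higher and 6 lower with BRD0705, with a median of -0.04 beside 0.00. All 10 fibroblast markers on the feeder list (among them Col1a1, Lox and Dcn) were expressed as well, and none was at 0. Their summed level was 2806 to 3262 CPM in control, 3513 to 3626 CPM with BRD0705 and 3117 to 3814 CPM with CHIR, so the BRD0705 libraries lay above every control library. Of these 10 markers 2 passed as higher in each comparison with control and 0 between the inhibitors (edgeR; 1 at an unadjusted p under 0.05, 0 in DESeq2). Over all tested genes 1.22% passed for BRD0705 and 6.30% for CHIR against control, and 7.77% between the inhibitors. All 10 markers were higher than in control under both inhibitors, with median log2 fold changes of 0.26 for BRD0705 and 0.19 for CHIR. At an unadjusted p under 0.05 in edgeR there were 7 and 6, and DESeq2 called 4 and 2. Lum had no adjusted p from DESeq2 for BRD0705 against control. Over all tested genes DESeq2 called 475 for BRD0705 and 923 for CHIR. In edgeR with DESeq2 size factors 2435 and 3184 tested genes had an unadjusted p under 0.05. The part of the stem cell markers in the member results was not tested. For the feeder markers, log2 fold changes of members with their level as a covariate are given below, and none are given for other genes. The trend of counts over GC content was not the same in each library. The Spearman correlation, across genes, of a library's deviation with transcript GC content was -0.288 to 0.187 in control, 0.0794 to 0.279 with BRD0705 and -0.121 to -0.0641 with CHIR. In bulk RNA, fewer cells of a type and less RNA per cell cannot be told apart.

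Promoter windows of 250 bases before the RefSeq start site (build GRCm38.p6, the same assembly as mm10) were available for the members other than Myc. The windows of Mycn and Mxd4 are shown because both transcripts were lower with CHIR and both windows lie wholly outside the annotated gene. Each is written 5′ to 3′ on the strand of the gene, and capitals mark the motifs found. The Mycn window is chr12:12941837-12942086 on the minus strand and the Mxd4 window is chr5:34187711-34187960 on the minus strand.
Mycn: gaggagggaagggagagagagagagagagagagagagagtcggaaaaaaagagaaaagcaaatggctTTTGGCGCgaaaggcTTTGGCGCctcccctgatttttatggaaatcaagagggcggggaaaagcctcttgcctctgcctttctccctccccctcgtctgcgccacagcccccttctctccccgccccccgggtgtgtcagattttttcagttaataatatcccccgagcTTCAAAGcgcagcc
Mxd4: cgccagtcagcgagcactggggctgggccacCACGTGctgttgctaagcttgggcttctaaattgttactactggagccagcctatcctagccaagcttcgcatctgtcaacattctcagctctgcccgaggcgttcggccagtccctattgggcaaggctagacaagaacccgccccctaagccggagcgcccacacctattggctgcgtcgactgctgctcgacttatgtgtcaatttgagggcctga

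In the Mycn window, the E2F core TTTGGCGC began 183 and 168 bases before the start site, and it occurred in 0.417% of all 32851 promoter windows of the same length. This form was added to the search after the sequence had been seen. The TCF/LEF core CTTTGAA, the DNA word bound by the factors that recruit β-catenin, lay on the other strand of the Mycn window 14 bases before the start site, and 4.46% of windows held it. The other motifs searched on both strands were CTTTGAT (3.21% of windows), the STAT palindrome TTCNNNGAA (7.02%) and the E2F core TTCCCGCC (1.86%), and none of these was found in a member's window. No 2 of the motifs found overlapped.

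The E-box CACGTG was in the windows of Mxd4, Mnt and Mlx and in 6.02% of all windows. The 3 are members that dimerise at E-boxes themselves, or with factors that do, and they are shown with 10 bases on each side, 26 bases in all, the E-box in capitals. They began 219, 123 and 40 bases before the start site of the promoter table, which for Mnt and Mlx lies inside the outermost bounds of the gene given below. Their positions on GRCm38.p6 are chr5:34187914-34187939 (minus strand), chr11:74830791-74830816 (plus strand) and chr11:101087240-101087265 (plus strand).
Mxd4: gctgggccacCACGTGctgttgctaa
Mnt: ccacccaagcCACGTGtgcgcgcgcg
Mlx: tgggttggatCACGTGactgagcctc

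A match of these letters is a description of the sequence and shows no binding. Of these 3 genes, Mxd4 was lower with CHIR, whereas no difference passed the test for Mnt or Mlx.

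The levels of the 9 genes were set side by side per length, as CPM per kilobase of annotated exons, over all 9 libraries. Mycn had the highest level at 30.2 ± 2.86 CPM per kilobase, followed by Max at 27.0 ± 2.24 and Myc at 20.8 ± 3.21 (± SD, n = 9). Mnt stood at 17.3 ± 1.43, Mga at 14.8 ± 0.909 and Mlx at 13.5 ± 1.03 CPM per kilobase (± SD, n = 9). Mycl (6.94 ± 1.17), Mxi1 (6.39 ± 0.472) and Mxd4 (1.42 ± 0.187) were lowest (± SD, n = 9). The order of Mycl and Mxi1 was not the same in each group: Mycl was above Mxi1 in control (8.04 ± 0.417 against 6.88 ± 0.380) and with BRD0705 (7.11 ± 0.797 against 5.90 ± 0.116), and below it with CHIR (5.67 ± 0.643 against 6.38 ± 0.104 CPM per kilobase; ± SD, 3 libraries each). Library values of neighbours in this order overlapped, except between Mlx and Mycl and between Mxi1 and Mxd4. Among the tested genes with a length, Mycn was at percentile 92.3 and Mxd4 at percentile 36.7 of this level. With the length of the longest annotated transcript in place of all exons, Max (42.4) came before Mycn (41.3) and Mxi1 (8.83) before Mycl (7.33 CPM per kilobase).

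The members that passed the test were the MYC family genes and Mxd4. In BRD0705 against control 1 of 9 members passed the test, Mycn, which was lower; over all tested genes 1.22% passed, 0.534% lower. In CHIR against control 4 of 9 passed, Myc, Mycn, Mycl and Mxd4, all lower; over all tested genes 6.30% passed, 3.78% lower. In BRD0705 against CHIR 3 of 9 passed, Myc, Mycl and Mxd4, all higher with BRD0705; over all tested genes 7.77% passed, 4.80% higher. Calls came from the quasi-likelihood test of edgeR, with p-values adjusted by Benjamini-Hochberg across the 15366 tested genes, and a gene passed at an adjusted p under 0.05. The median log2 fold change of the 9 members was -0.03, -0.11 and 0.06 in the 3 comparisons, and that of all tested genes 0.00, -0.01 and 0.00. The 2 groups had separate ranges of CPM for 5 of 9 members in each comparison, against 20.2%, 25.1% and 26.7% of all tested genes. The first and second comparisons share the control libraries. Annotated noncoding genes on the opposite strand share 748 bases of exon with Mycn, 514 with Mxd4, 349 with Mxi1, 304 with Mnt, 143 with Mycl and 101 with Myc. The partner of Mxi1 had a row of its own, at 0 to 2 counts per library beside 738 to 1090 for Mxi1. The other partners had no row. The use of strand in counting is not given in the sources used here, so reads from these other partners cannot be told apart from those of the members.

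**Figure D1:**
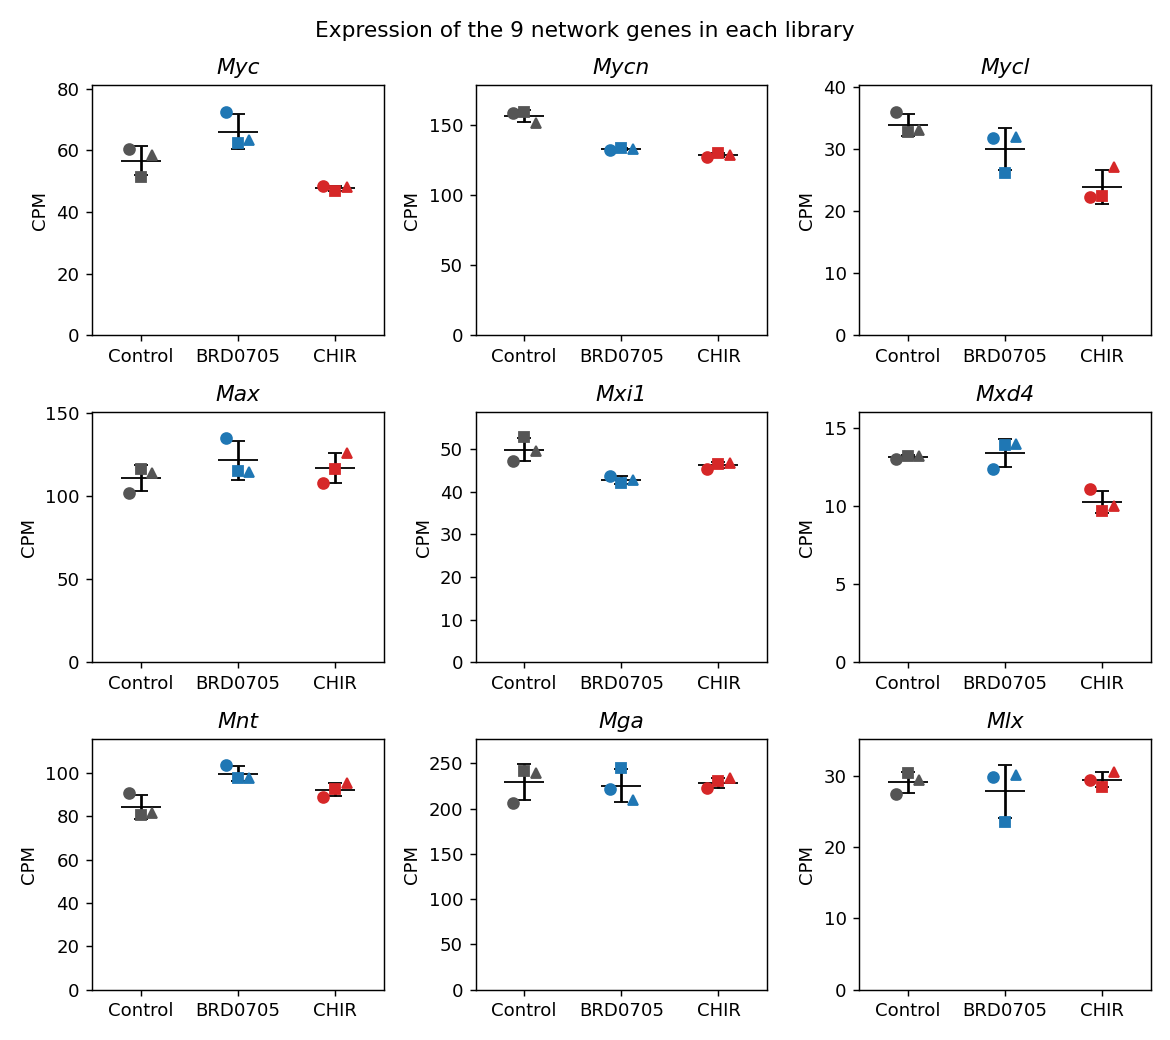
Expression of the 9 members as CPM (vertical axes, from 0) in control, BRD0705 and CHIR libraries. Points are libraries (circle, square and triangle for replicates 1, 2 and 3), long bars are group means and whiskers 1 SD. Mycn lies lower in both inhibitor groups than in control, while Myc and Mxd4 lie lowest with CHIR.

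**Figure D2:**
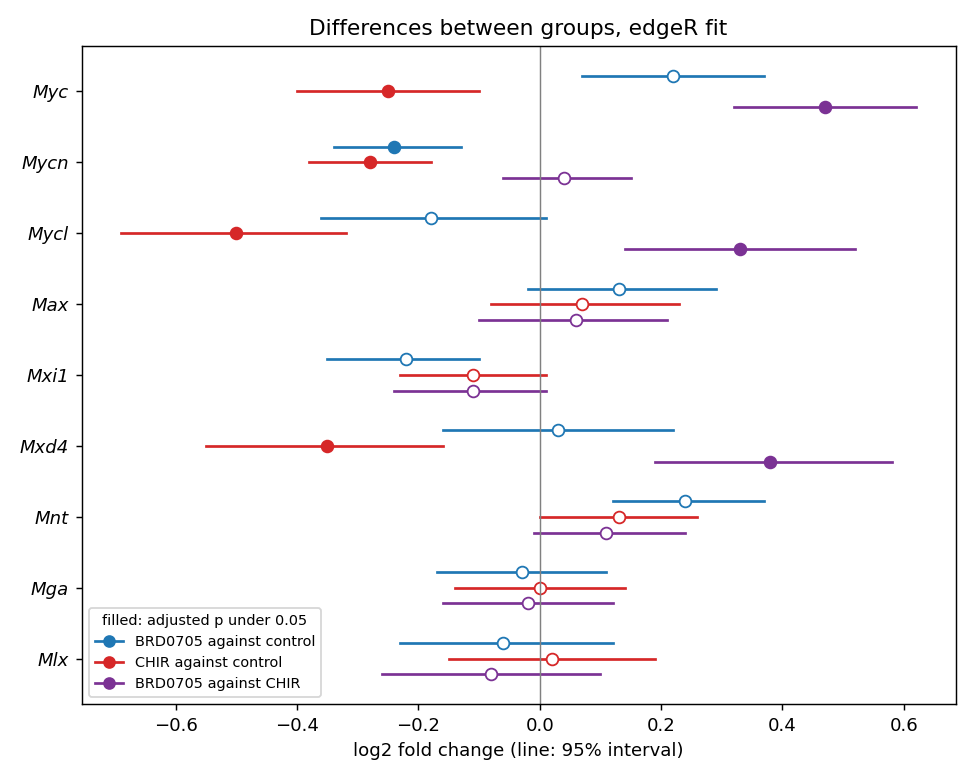
Log2 fold changes of the 9 members (horizontal axis) in the 3 comparisons from the edgeR fit, with 95% intervals as lines and filled points where the adjusted p was under 0.05. Myc lies on opposite sides of 0 in the 2 comparisons with control, and Mycn lies at -0.24 and -0.28.

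Mycn (chromosome 12, 12936093 to 12941836), the family member first found in neuroblastoma and a major MYC of embryonic stem cells, was lower under both inhibitors. Counts per library were 2350 to 3293. Control replicates 1 to 3 had 159, 159.5 and 152 CPM. The BRD0705 replicates had 132, 134 and 133 CPM, and the CHIR replicates 127, 130.3 and 129 CPM. All 6 treated libraries lay below all 3 controls, and the spread within each treated group was small beside the distance to control. Group means were 157 ± 4.23 CPM (control), 133 ± 0.722 (BRD0705) and 129 ± 1.47 (CHIR) (± SD, 3 libraries each). The log2 fold change was -0.24 ± 0.05 for BRD0705 (SE; adjusted p 0.0263 in edgeR), and -0.28 ± 0.05 for CHIR (SE; adjusted p 0.00205 in edgeR). Between BRD0705 and CHIR the log2 difference was 0.04, with a 95% interval of -0.06 to 0.15 (adjusted p in edgeR 0.657), and no difference was detected.

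The BRD0705 call for Mycn was lost on leaving out control replicate 2 or 3, BRD0705 replicate 1 or 2, or CHIR replicate 2, with adjusted p values from edgeR of 0.0546 to 0.143, while the CHIR call passed in all 9 such fits. With the feeder marker level as a covariate the log2 fold changes were as large, -0.24 and -0.28, with adjusted p values from edgeR of 0.595 and 0.0544; with that covariate 0 of all tested genes passed for BRD0705 in edgeR, 1115 genes had an unadjusted p under 0.05, and DESeq2 without it gave 475.

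Myc (chromosome 15, 61985341 to 61990361), the founding member and an immediate early gene, differed most between the inhibitors. Counts per library were 848 to 1356. The control libraries had 60.3, 51.2 and 58.4 CPM. The BRD0705 libraries had 72.5, 62.3 and 63.2 CPM and the CHIR libraries 48.4, 46.7 and 48.0 CPM. The groups did not overlap in any of the 3 pairings, with BRD0705 highest, control between and CHIR lowest. Means were 56.6 ± 4.77 CPM (control), 66.0 ± 5.67 (BRD0705) and 47.7 ± 0.876 (CHIR) (± SD, 3 libraries each). Directly compared, Myc was higher with BRD0705 than with CHIR by 0.47 ± 0.07 on the log2 scale (SE; adjusted p 0.000571 in edgeR), or 38.4%, and this passed under all 21 alternative settings.

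Against control, Myc was lower with CHIR by a log2 fold change of -0.25 ± 0.07 (SE; adjusted p 0.0476 in edgeR), which is close to the threshold. This call passed in 7 of 21 alternative settings, and it was lost on leaving out control replicate 1 or 3, BRD0705 replicate 2 or 3, or any CHIR replicate (adjusted p in edgeR 0.0510 to 0.175). With a correction for the GC content and length trends of the libraries the log2 fold change was -0.18 and the adjusted p in edgeR 0.0966, and with the feeder covariate -0.32 and 0.121. With BRD0705 the log2 fold change of Myc from control was 0.22 ± 0.07 (SE; adjusted p 0.127 in edgeR), which did not pass. It passed with no low-count filter (adjusted p in edgeR 0.0398), and with the feeder covariate the log2 fold change was 0.12 (adjusted p in edgeR 0.858).

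Mycl (chromosome 4, 122995588 to 123002490), the family member first found in lung cancer, showed the greatest fold difference of any member under CHIR. Counts per library were 408 to 728. The control libraries had 35.9, 32.7 and 33.0 CPM, the BRD0705 libraries 31.8, 26.1 and 32.0 CPM, and the CHIR libraries 22.2, 22.5 and 27.0 CPM. All CHIR and all BRD0705 libraries lay below control, and BRD0705 replicate 2 fell within the range of CHIR. Means were 33.9 ± 1.75, 29.9 ± 3.36 and 23.9 ± 2.71 CPM (± SD, 3 libraries each). The log2 fold change was -0.50 ± 0.09 for CHIR (SE; adjusted p 0.00205 in edgeR), at percentile 92.7 of the absolute fold changes of all tested genes. For BRD0705 it was -0.18 ± 0.09 (SE; adjusted p 0.333 in edgeR), which did not pass, and it was -0.08 both without BRD0705 replicate 2 and with the feeder covariate (adjusted p in edgeR 0.739 and 0.937).

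Between inhibitors Mycl was higher with BRD0705 by 0.33 ± 0.09 on the log2 scale (SE; adjusted p 0.0313 in edgeR). That difference was lost with the GC and length correction (0.21, adjusted p in edgeR 0.118) and on leaving out BRD0705 replicate 1 or 3 or CHIR replicate 1 or 2 (adjusted p in edgeR 0.105 to 0.144). The fall with CHIR passed in 20 of 21 alternative settings; with the feeder covariate it was -0.44, with an adjusted p from edgeR of 0.0821.

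Per length, the 3 MYC family transcripts summed to 62.8 ± 2.01 CPM per kilobase (control), 60.1 ± 2.45 (BRD0705) and 51.1 ± 0.784 (CHIR) (± SD, 3 libraries each). The CHIR libraries, at 50.6, 50.7 and 52.0, lay below all others, and the lowest of the rest was BRD0705 replicate 2 at 58.0 CPM per kilobase. Within that sum Mycn made up 54.2 ± 2.097% (control), 48.0 ± 2.18% (BRD0705) and 54.7 ± 0.948% (CHIR) (± SD, 3 libraries each). The share of Myc was 33.0 ± 2.03%, 40.2 ± 1.85% and 34.2 ± 0.709% in the same order (± SD, 3 libraries each). Mycl held 12.8 ± 0.267%, 11.8 ± 1.06% and 11.1 ± 1.08% (± SD, 3 libraries each). The share of Myc thus ran from 38.9 to 42.3% in the BRD0705 libraries, above the 30.7 to 35.0% of the other 6. These sums and shares are given as a description with no test, and they depend on the length used. With the longest transcript in place of all exons, the control mean of Mycn was 46.36 in place of 33.96 CPM per kilobase. That of Myc was 23.85 in place of 20.75, and that of Mycl 8.49 in place of 8.04.

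**Figure D3:**
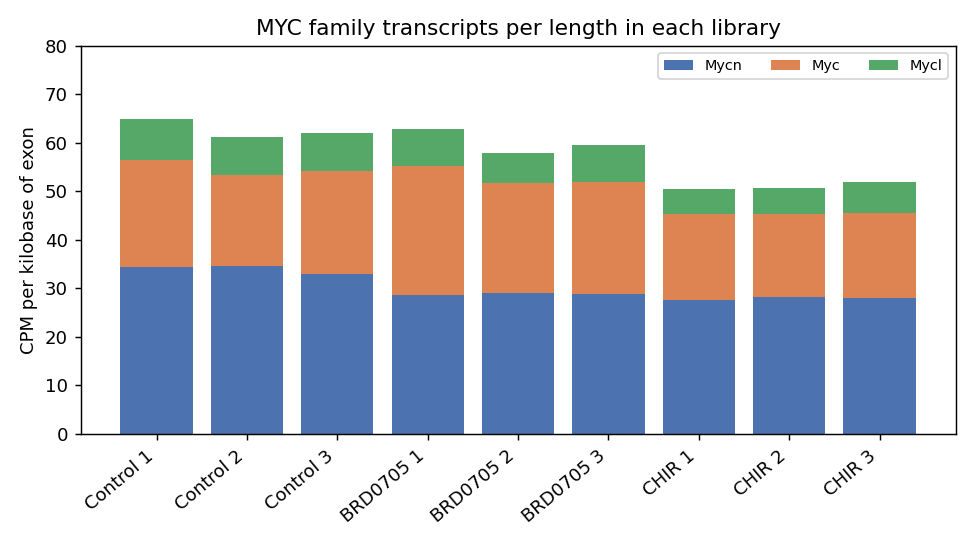
Level of Mycn, Myc and Mycl transcripts as CPM per kilobase of annotated exon (vertical axis, from 0), stacked for each of the 9 libraries. The stacks of the CHIR libraries reach 50.6 to 52.0 and those of the control libraries 61.1 to 65.0, and the Myc segment is thickest in the BRD0705 libraries.

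Max (chromosome 12, 76937269 to 76962323), the partner that every MYC protein needs, did not pass in any comparison. It had 102, 116 and 114 CPM in control, 135, 115 and 114 CPM with BRD0705, and 108, 116 and 126 CPM with CHIR. The groups overlapped, and the highest value was BRD0705 replicate 1. Means were 111 ± 7.85, 121 ± 11.8 and 117 ± 9.12 CPM (± SD, 3 libraries each). The 95% interval of the log2 fold change was -0.02 to 0.29 for BRD0705 and -0.08 to 0.23 for CHIR (adjusted p in edgeR 0.404 and 0.635). Its estimates were 0.13 and 0.07. With the feeder covariate they were 0.28 and 0.19 (adjusted p in edgeR 0.596 and 0.390).

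Among the repressors that share MAX, Mxd4 (chromosome 5, 34176580 to 34187710) had the lowest level per length and was lower with CHIR than in either other group. MXD4 is a MAX partner associated with cells that leave the cycle or differentiate. Its libraries had 13.0, 13.2 and 13.2 CPM in control, 12.4, 13.9 and 14.0 CPM with BRD0705, and 11.1, 9.69 and 10 CPM with CHIR, from 176 to 294 counts. Every CHIR library lay below every control and every BRD0705 library, while control and BRD0705 overlapped. Means were 13.1 ± 0.107, 13.4 ± 0.904 and 10.2 ± 0.721 CPM (± SD, 3 libraries each). The log2 fold change was -0.35 ± 0.09 for CHIR against control (SE; adjusted p 0.0274 in edgeR), and Mxd4 was higher with BRD0705 than with CHIR by 0.38 ± 0.09 (SE; adjusted p 0.0163 in edgeR). For BRD0705 against control the 95% interval was -0.16 to 0.22 (adjusted p in edgeR 0.917).

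Leaving out any control replicate, or CHIR replicate 2 or 3, took the call for Mxd4 in CHIR against control to adjusted p values from edgeR of 0.0622 to 0.127, DESeq2 gave 0.0560, and the feeder covariate gave 0.224 at a log2 fold change of -0.35. The call between inhibitors passed in 17 of 21 settings and was lost without BRD0705 replicate 2 or 3 or CHIR replicate 2 or 3 (adjusted p in edgeR 0.0530 to 0.0780).

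**Figure D4:**
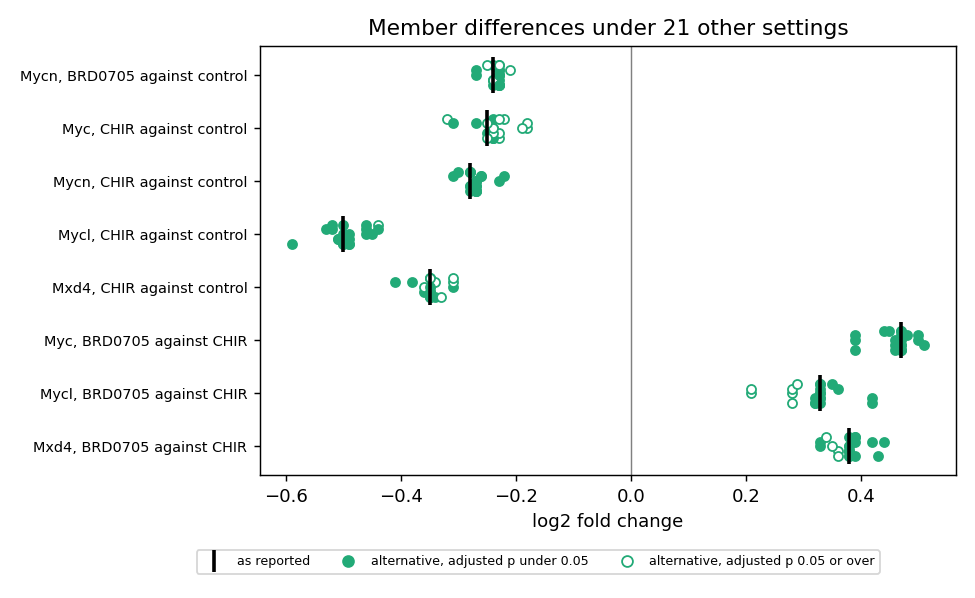
Log2 fold changes (horizontal axis) of the 8 member differences that passed the test, as reported (black bars) and under 21 other settings (circles, filled where the adjusted p was under 0.05). All circles keep the direction of the reported value. Those of Myc in BRD0705 against CHIR are all filled, and those of Myc in CHIR against control are mostly open.

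Mxi1 (chromosome 19, 53310128 to 53373293), also a MAX partner that recruits SIN3, passed in no comparison. It had 47.3, 52.8 and 49.5 CPM in control, 43.65, 42.0 and 42.65 CPM with BRD0705, and 45.4, 46.5 and 46.85 CPM with CHIR. No treated library reached the lowest control, and BRD0705 lay below CHIR. Means were 49.9 ± 2.75, 42.8 ± 0.838 and 46.3 ± 0.756 CPM (± SD, 3 libraries each). The log2 fold change for BRD0705 was -0.22 ± 0.06 (SE; adjusted p 0.0678 in edgeR). DESeq2 gave an adjusted p of 0.0493, and edgeR 0.0472 without control replicate 1. For CHIR the log2 fold change was -0.11 (adjusted p in edgeR 0.312). With the feeder covariate the values were -0.15 for BRD0705 and -0.06 for CHIR (adjusted p in edgeR 0.776 and 0.825).

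Mnt (chromosome 11, 74830806 to 74845725), a broadly expressed antagonist of MYC at E-boxes, passed in no comparison in the edgeR fit used for the calls. It had 91.0, 80.7 and 81.6 CPM in control, 104, 97.7 and 97.7 CPM with BRD0705, and 89.2, 92.7 and 95.3 CPM with CHIR. BRD0705 libraries lay above all others, and CHIR overlapped control. Means were 84.4 ± 5.71, 99.7 ± 3.58 and 92.4 ± 3.07 CPM (± SD, 3 libraries each). The log2 fold change for BRD0705 was 0.24 ± 0.06 (SE; adjusted p 0.0531 in edgeR), just short of the threshold. It passed in 9 of 21 alternative settings, DESeq2 among them (adjusted p 0.00769). In edgeR it passed with no low-count filter, library size only and DESeq2 size factors (adjusted p 0.0101, 0.0381 and 0.0479). It also passed in edgeR without control replicate 1, BRD0705 replicate 3 or CHIR replicate 1. With the feeder covariate the log2 fold change was 0.21 for BRD0705 and 0.10 for CHIR (adjusted p in edgeR 0.673 and 0.617). With the GC and length correction the log2 fold change was 0.15 for BRD0705 (adjusted p in edgeR 0.197). For CHIR it was 0.13 (adjusted p in edgeR 0.223), and 0.17 with that correction, which passed (adjusted p in edgeR 0.0493, or 0.0650 with the replicate block as well).

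Mga (chromosome 2, 119872503 to 119970129) and Mlx (chromosome 11, 101086707 to 101092207) passed in no comparison. Mga had 206, 242 and 239.7 CPM in control, 221, 245 and 209 CPM with BRD0705, and 222, 230.2 and 233 CPM with CHIR, and the groups overlapped. The 95% intervals of its log2 fold changes were -0.17 to 0.11 for BRD0705 and -0.14 to 0.14 for CHIR (adjusted p in edgeR 0.896 and 0.982). Mlx had 27.5, 30.4 and 29.4 CPM in control, 29.9, 23.55 and 30.1 CPM with BRD0705, and 29.4, 28.5 and 30.6 CPM with CHIR. Only BRD0705 replicate 2 stood apart, below the other 8 libraries. Its 95% intervals were -0.23 to 0.12 for BRD0705 and -0.15 to 0.19 for CHIR (adjusted p in edgeR 0.792 and 0.929). Mlx shares 1109 bases of exon with Psmc3ip on the opposite strand, at 297 to 476 counts per library, so some of its reads are uncertain.

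Other genes of the pathway were read from lists. Beside the counts of each list, 1.22% of all tested genes passed for BRD0705, 6.30% for CHIR and 7.77% between the inhibitors in edgeR. DESeq2 called 475 genes for BRD0705 and 923 for CHIR. An unadjusted p under 0.05 was more common. In edgeR with DESeq2 size factors it was reached by 2435, 3184 and 3485 of 15366 genes in the 3 comparisons. The remaining network genes Mxd1, Mxd3, Mlxip and Mlxipl were all tested, and 0 of 4 passed in each comparison. In CHIR against control 2 of these 4 had an unadjusted p under 0.05 in edgeR, in the other comparisons 0, and DESeq2 called 0. For BRD0705 against control DESeq2 gave no adjusted p for Mxd1, Mxd3 and Mlxipl, so it could not call them. The median log2 fold change of the 4 was 0.07 for BRD0705, 0.03 for CHIR and 0.11 between the inhibitors, beside 0.00, -0.01 and 0.00 for all tested genes. Of 19 genes of MYC turnover and of GSK3 signalling to MYC (FBXW7 ligase subunits, deubiquitinases, PP2A subunits, GSK3 itself), 0 passed against control under either inhibitor in edgeR. At an unadjusted p under 0.05 there were 7 for BRD0705 and 3 for CHIR, and DESeq2 called 3 and 1. Usp28, a deubiquitinase that opposes FBXW7, passed between inhibitors, at 94.2 ± 1.93 CPM with BRD0705 and 112 ± 1.84 CPM with CHIR (mean ± SD of 3 libraries), with a log2 fold change of -0.25, an SE of 0.05 and an adjusted p of 0.00692 in edgeR. The median log2 fold change of that list was -0.05 for BRD0705, 0.04 for CHIR and -0.06 between them.

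Of 16 MYC cofactors, 0 passed with BRD0705 in edgeR (5 at an unadjusted p under 0.05, 1 in DESeq2), and 1 rose with CHIR (7 at an unadjusted p under 0.05, 2 in DESeq2). The median log2 fold change of the list was 0.04 for BRD0705, 0.10 for CHIR and -0.09 between them. Ccnt1, the cyclin of the elongation kinase P-TEFb, rose from 74.8 ± 3.14 to 95.5 ± 1.78 CPM with CHIR (mean ± SD of 3 libraries), with a log2 fold change of 0.35, an SE of 0.06 and an adjusted p of 0.00174 in edgeR. It was lower with BRD0705 than with CHIR, with a log2 difference of -0.26 ± 0.06 (SE; adjusted p 0.0111 in edgeR). Wdr5, a chromatin adaptor that binds MYC and belongs to PRC1.6 as well, was lower with BRD0705 than with CHIR by a log2 difference of -0.18 ± 0.05 (SE; adjusted p 0.0389 in edgeR). Of 11 SIN3 and histone deacetylase genes, 0 passed in each comparison in edgeR. With BRD0705 4 of them had an unadjusted p under 0.05 and DESeq2 called 2; in each of the other comparisons these counts were 1 and 0. Their median log2 fold changes were -0.05, -0.03 and -0.03.

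MGA acts within PRC1.6, beside PCGF6, L3MBTL2 and E2F6. Of 12 PRC1.6 genes, 0 passed against control and Wdr5 alone passed between inhibitors in edgeR. Against control the counts at an unadjusted p under 0.05 were 1 for BRD0705 and 2 for CHIR, and DESeq2 called 0. Yaf2 and Ring1 had no adjusted p from DESeq2 for BRD0705 against control. The median log2 fold changes of the list were -0.05, 0.04 and -0.07. Of 15 germline genes of the kind that PRC1.6 silences, all were tested. Smc1b, a meiotic cohesin subunit, fell from 25.9 ± 1.34 to 21.5 ± 0.886 CPM with CHIR (mean ± SD of 3 libraries), with a log2 fold change of -0.27, an SE of 0.07 and an adjusted p of 0.0328 in edgeR, a call that DESeq2 did not make (adjusted p 0.0628). It was higher with BRD0705 than with CHIR, with a log2 difference of 0.32 ± 0.07 (SE; adjusted p 0.0103 in edgeR). The other 14 passed in no comparison. With BRD0705 0 of the 15 passed (2 at an unadjusted p under 0.05, 0 in DESeq2), and the median log2 fold changes of the list were -0.07, 0.01 and -0.12. For BRD0705 against control DESeq2 gave no adjusted p for Tex11, Tex101, Taf7l, Sycp3, Stk31, Tdrkh, Mov10l1 and Slc25a31. It could not call these.

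Of 30 MYC target genes (nucleolar, ribosome assembly, metabolism and cycle genes), 3 fell with BRD0705, and 2 rose and 1 fell with CHIR in edgeR. Over all tested genes 1.22% passed for BRD0705, 0.534% lower, and 6.30% for CHIR, 3.78% lower. At an unadjusted p under 0.05 in edgeR there were 13 of the 30 for BRD0705 and 9 for CHIR, and DESeq2 called 6 and 4. Of all 15366 tested genes 2435 and 3184 had such a p in edgeR with DESeq2 size factors, and DESeq2 called 475 and 923. Between inhibitors 7 of the 30 were higher and 23 lower with BRD0705, whether or not they passed. The median of all tested genes in that comparison was 0.00. The lean was not particular to this list. Of the MYC turnover genes 16 of 19 were lower, of the cofactors 12 of 16 and of the PRC1.6 genes 10 of 12. The remaining network genes and the feeder markers leaned the other way, with 3 of 4 and 7 of 10 higher. With BRD0705 the chaperonin gene Hspe1 fell from 154 ± 8.26 to 124 ± 6.62 CPM (mean ± SD of 3 libraries), with a log2 fold change of -0.32, an SE of 0.07 and an adjusted p of 0.0274 in edgeR. The nucleolar RNP genes Nop58 and Dkc1 fell by 0.23 and 0.22 on the log2 scale (adjusted p in edgeR 0.0360 and 0.0413). With CHIR the nucleolar gene Nop56 rose from 448 ± 25.9 to 540.1 ± 32.7 CPM (mean ± SD of 3 libraries), with a log2 fold change of 0.27, an SE of 0.06 and an adjusted p of 0.00932 in edgeR. The spermidine synthase gene Srm rose by 0.16 (adjusted p in edgeR 0.0479), and Tfam, which encodes a mitochondrial DNA-binding factor, fell by 0.22 on the log2 scale (adjusted p in edgeR 0.0262). Between inhibitors Dkc1 and Nop56 were lower with BRD0705 (-0.23 and -0.22, adjusted p in edgeR 0.00852 and 0.0269). The list's median log2 fold change was -0.01 with BRD0705, 0.02 with CHIR and -0.07 between them.

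Of 3 targets of MLX and its glucose-sensing partners, Txnip, a brake on glucose uptake, rose with CHIR from 361 ± 31.7 to 442 ± 19.7 CPM (mean ± SD of 3 libraries), with a log2 fold change of 0.29, an SE of 0.06 and an adjusted p of 0.00847 in edgeR. Arrdc4 and Pklr passed in no comparison, and with BRD0705 0 of the 3 passed in edgeR (0 at an unadjusted p under 0.05, 0 in DESeq2). Pklr had no adjusted p from DESeq2 for BRD0705 against control.

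The genes whose pattern over the 9 libraries was most like that of Myc, by Pearson correlation of log2 CPM among 7661 genes whose log2 CPM averaged 4 or more, were Prr12 (0.973), Arhgap23 (0.973), Caskin2 (0.972), Gramd1b (0.967) and Trim8 (0.966). Most like Mycn were Klf6 (0.966), Klhl24 (0.942), Rhpn2 (0.939), Dnaja3 (0.928) and Mkln1 (0.922). Klf6, a zinc finger transcription factor gene, had log2 fold changes from control of -0.32 for BRD0705 and -0.41 for CHIR, a direction that its choice by likeness to Mycn fixes. These correlations are over 9 libraries that share groups, depth and GC trends, and are a description.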

How the data were processed

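The authors deposited whole-number raw counts for 52264 gene symbols. The submitters' processing notes name RSEM, DESeq2 and the build mm10, without versions or roles; annotation and strand handling are not given in the sources used here. The labels describe ribosomal RNA depletion of total RNA and also polyA RNA, and this was not resolved. The authors also deposited a normalized table, a signal equal to the count divided by 1 factor per library (constant to within 9.98e-10). It was used as an alternative only.

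The count model was fitted in edgeR 4.0.16 (R 4.3.3): TMM scaling, filterByExpr (minimum count 10), and the quasi-likelihood F test on 3 group means of all 9 libraries, with 6 residual degrees of freedom, 2-sided, adjusted by Benjamini-Hochberg over 15366 genes. CPM values were scaled by TMM, with a prior count of 2 on the log2 scale. A standard error is the absolute log2 fold change over the square root of F. The fits were tested on simulated data. Exon lengths and GC content came from GENCODE vM39 (98.0% of tested genes), positions and promoters from RefSeq on GRCm38.p6.

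Members and lists were chosen with earlier results of these data known. 1 gene of the list on MYC turnover is not reported here and was left out of its counts. Named were all members, list genes past the threshold, and the 5 genes most correlated with Myc and with Mycn.

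Alternatives were DESeq2 1.42.0, limma 3.58.1 (voom, and the deposited values as log2(value + 1) and log2(value + 0.1)), other scalings, no filter, fewer groups, the replicate block, a GC and length correction (splines with 5 degrees of freedom), the feeder marker level, and each library left out.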

Additional observations from a re-analysis of the deposited data

How the results depend on the processing

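Of 566 recomputed values of the 27 member differences (DESeq2 gave no adjusted p for Mxd4 in BRD0705 against control), 477 kept their direction and side of the threshold, 40 fell short of it, 13 newly passed it and 36 changed sign. Tested genes numbered 188, 968 and 1194 past the threshold (BRD0705 against control, CHIR against control, BRD0705 against CHIR) and members 1, 4 and 3. With the replicate block they were 222, 973 and 1177 genes and the same numbers of members. No pairing by replicate number was seen: same-numbered libraries of different groups had deviations correlated, across genes, at -0.0897 to 0.0802. Whether same-numbered libraries share a culture cannot be told from this.

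For BRD0705 against control, DESeq2 gave 475 genes and 3 members, no low-count filter 609 and 3, the GC and length correction 114 genes, that correction with the replicate block 120, and the feeder covariate 0 and 0 by edgeR (3 members at an unadjusted p under 0.05, and 3 past the threshold in DESeq2 without it). DESeq2 size factors, library size only and both log2 forms of the deposited values gave 2 members. Leaving out 1 library gave 21 to 305 genes and 0 to 3 members, with 4 or 5 members at an unadjusted p under 0.05 where the count was 0. For CHIR against control, the GC and length correction gave 1540 genes, with the block 1483 genes and 2 members, and the feeder covariate 198 genes and 0 members (4 at an unadjusted p under 0.05, and 3 past the threshold in DESeq2 without it). Leaving out 1 library gave 514 to 1070 genes and 2 to 4 members. For BRD0705 against CHIR, leaving out 1 library gave 616 to 1313 genes and 1 to 3 members. The causes were not tested.

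Sign changes were limited to differences that passed in no setting. For Mga in BRD0705 against control the log2 fold change became 0.00 with the GC and length correction, with or without the block, and 0.09 with the feeder covariate, with -0.10 to 0.03 on leaving out 1 library. For Mga in CHIR against control it became 0.01 with DESeq2, its size factors, the GC and length correction (also with the block) and both forms of the deposited values, 0.00 with no filter or with only the 2 groups compared, and 0.09 with the feeder covariate, with -0.07 to 0.05 on leaving out 1 library. For Mga in BRD0705 against CHIR it became 0.01 with library size only and 0.00 with the feeder covariate (-0.09 to 0.03 on leaving out 1 library). For Mlx it became 0.03 with the feeder covariate in BRD0705 against control (-0.11 to 0.05 on leaving out 1 library) and -0.01 with library size only in CHIR against control (-0.01 to 0.06), and ranged from -0.14 to 0.02 in BRD0705 against CHIR. With the GC and length correction, with or without the block, BRD0705 against CHIR became -0.04 for Mycn, -0.02 for Mnt, and -0.01 and 0.00 for Max (-0.03 to 0.12 on leaving out 1 library).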

Other observations

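Bmyc, a family relative that resembles the amino-terminal part of Myc and lies outside the 9 members, was looked at after its values had been seen. It rose with BRD0705, from 33.1 ± 3.86 CPM in control to 42.2 ± 2.38 CPM (mean ± SD of 3 libraries), with a log2 fold change of 0.35, an SE of 0.08 and an adjusted p of 0.0360 in edgeR, and stood at 34.7 ± 0.448 CPM with CHIR (SD, n = 3). The BRD0705 libraries did not overlap either other group, and the difference between inhibitors was 0.28 ± 0.08 on the log2 scale (SE), adjusted p 0.0310 in edgeR. Bmyc and Myc thus shared their highest group. Reads of similar sequence can be split between these rows.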
